A study of Mus musculus with 8 samples.

Results

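The upstream part of the copy of the 45S ribosomal RNA repeat on mouse chromosome 17 was read from small RNA fragments listed under piRNA names in sperm. Members were the plus-strand names on chromosome 17 whose listed start lies in a stretch of about 2 kb at the upstream end of the copy, each name being used once. This rule held 44 of the 13450 names in the table of MC-LR and control libraries and 48 of the 17375 names in the table of Hsp90aa1 shRNA and NC shRNA libraries. The rule used position only, 38 names were in both tables, and each member was listed at 1 locus.

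The samples were sperm of 8-month-old Balb/c mice in 4 groups of 2 libraries each, lettered A and B. The MC-LR group was exposed to microcystin-LR, a peptide toxin made by cyanobacteria that blocks the protein phosphatases PP1 and PP2A, and was set against a control group with no exposure named in the labels. The Hsp90aa1 shRNA group received an shRNA against the transcript of the chaperone HSP90 alpha and was set against the NC shRNA group, which received a negative-control shRNA. The level of Hsp90aa1 itself was not analysed here. The study's design text speaks of 2 doses of MC-LR, but the labels used here do not say which library had which. The MC-LR libraries were taken as 1 group, so a mean, SD or test over them may span doses. The labels give no route by which either shRNA was given and no animal of origin. Each p-value therefore reflects the library-to-library spread alone, and that spread may be technical. Levels are RPM, a read count divided by the total of its library and put on 1 scale, as the authors deposited them.

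The 18S ribosomal RNA is transcribed by RNA polymerase I as part of 1 long precursor, the 45S transcript. The stretch before the 18S RNA is the 5′ external transcribed spacer, which is cut away and degraded while the ribosome is built. The first bases of the spacer are the first to be made. piRNAs are small RNAs that guide PIWI proteins in germ cells and often begin with U, and names in piRNA collections can also fall on fragments of abundant structural RNA.

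All coordinates are of GRCm38 (mm10) and 1-based, on the plus strand. Listed fragments began at 3 adjacent positions, 39842998, 39842999 and 39843000, called the edge here, and then at scattered positions as far as 39844609, called inner. The edge held 31 of the 44 members in the MC-LR table and 40 of the 48 in the shRNA table. Its first base lies 15 nt before the annotated start of Gm26917 (ENSMUSG00000097971.3), a long noncoding RNA gene at chr17:39843013-39846341 whose longer transcript is a single exon of 3329 nt. Each edge fragment therefore straddled that annotated start, while each inner fragment lay inside its exon. A pseudogene copy of 18S ribosomal RNA, Rn18s-rs5, begins 3356 nt after the first edge start, in the downstream part of the repeat copy. No listed name lay on the minus strand of the window. Among names used once at their first locus, the last member, in the MC-LR table, ended 1774 nt before the first downstream start.

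The bases of the annotated transcript that edge fragments reached are shown because their 3′ ends carry the length pattern described below. The stretch is chr17:39843013-39843031, read from the GENCODE M21 transcript, and its last base is the 3′ end of the longest edge fragments. Capitals mark 39843019 and 39843028, the bases at which the mean summed level of 3′ ends in the NC shRNA libraries was the highest within 3 bases on either side. The last base, 39843031, is not marked, although ends there were above those at 39843030, at 65.8 and 33.9 RPM against 32.1 and 24.1 RPM.
start of the annotated transcript: ccggagTtctcttcgGgcc
The 5 inner names below are shown because they overlap each other and hold the same 24 bases, chr17:39843457-39843480, given in capitals.
piR-mmu-67689539: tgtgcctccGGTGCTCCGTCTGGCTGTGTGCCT
piR-mmu-67688460: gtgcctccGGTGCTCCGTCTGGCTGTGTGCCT
piR-mmu-68008993: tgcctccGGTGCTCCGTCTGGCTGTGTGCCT
piR-mmu-10885836: tccGGTGCTCCGTCTGGCTGTGTGCCTt
piR-mmu-64425089: GGTGCTCCGTCTGGCTGTGTGCCT
The inner name with the highest mean level in control sperm is shown with its first base in capitals.
piR-mmu-67956595: Agaccccccttcttcgtcgggtgagcgcc

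Fragments of this spacer were lower in MC-LR sperm than in control sperm and lower in Hsp90aa1 shRNA sperm than in NC shRNA sperm. Summed over members, the level was 312 and 251 RPM in MC-LR libraries A and B, against 1566 and 1561 RPM in control libraries A and B. The means were 282 ± 42.7 RPM with MC-LR and 1563 ± 3.65 RPM in control (SD, n = 2 each), 5.55-fold lower with MC-LR. The groups stood apart, and in this sum the 2 control libraries differed by less than the 2 MC-LR libraries. Its parts did not share this. Edge fragments of 17 to 25 nt were at 474 and 286 RPM in control, and those of 26 to 33 nt at 1041 and 1220 RPM. The SDs of these parts were 133 and 127 RPM in control, against 26.7 and 17.3 RPM with MC-LR. In the shRNA comparison the sum was 153 and 54.5 RPM with the Hsp90aa1 shRNA, against 1016 and 1406 RPM with the NC shRNA. The means were 104 ± 69.7 RPM with the Hsp90aa1 shRNA and 1211 ± 275 RPM with the NC shRNA (SD, n = 2 each), 11.7-fold lower with the Hsp90aa1 shRNA. That fold was 22.2 without Hsp90aa1 shRNA library A and 7.91 without Hsp90aa1 shRNA library B, so the size of the decrease depended on which library was used. A two-sided exact permutation test of 2 libraries against 2 cannot give less than p = 0.333, the value reached by both sums. In these bulk samples, fewer cells that carry the fragments and less of the RNA per cell cannot be told apart.

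**Figure D1:**
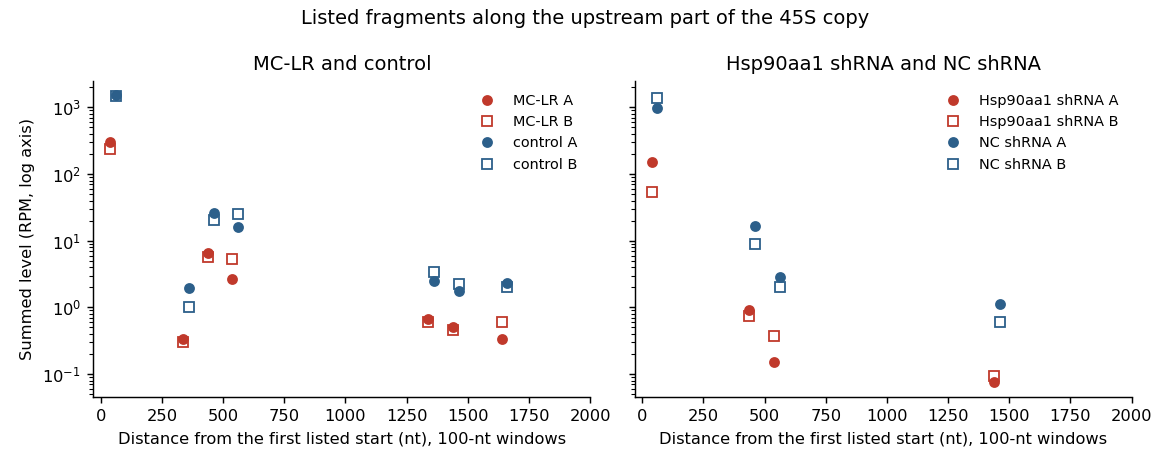
Summed level of listed fragments (RPM, log axis) in windows of 100 nt along the upstream part of the 45S copy, by distance from the first listed start, for each library; the groups are offset sideways. The first window, which holds the edge, was at 301 and 239 RPM with MC-LR against 1515 and 1507 RPM in control, and later windows were at 26.5 RPM or less in each library.

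Name by name, 42 of the 43 members tested fell with MC-LR, 1 did not pass and none rose, by limma on log2(RPM + 1) with Benjamini-Hochberg adjustment at 0.05. Over all names of that table the share called lower was 73.1%, and the share called higher was 2.37%. In the shRNA table, 46 of 46 members tested fell, where 99.5% of all names tested were called lower and 0.219% higher. The groups did not overlap for any of the 44 and 48 members, with both MC-LR or both Hsp90aa1 shRNA libraries below both of the other group, which was so for 92.6% and 99.8% of all names. The median log2 fold change of members was −1.93 with MC-LR, against −1.17 over all names, and −2.75 with the Hsp90aa1 shRNA, against −1.66 over all names. With shares of that size over all names, the counts alone do not set the spacer apart. The tables list hardly any name with like means in both groups: 3 of 13450 and 1 of 17375 names, and 0 members, had an absolute log2 ratio of group means under 0.5. No listed name had a value of 0 in a library of its table, so a name without reads in any 1 library is not in these lists. How names came to be listed is not given in the sources used here. Calls, shares and counts of groups without overlap are thus all read from lists in which nearly every name differs between the group means.

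Scaling by the listed names in place of the library total set the middle of each table near 0. With edgeR and TMM factors, which scale to the listed names, the median over all names moved to 0.06 with MC-LR and −0.03 with the Hsp90aa1 shRNA, against −1.64 and −2.83 with library totals in the same tool. The median over members was then −0.76 and −1.12, below that of all names in both comparisons. Of the members, 2 fell with MC-LR under that scaling, where 2.17% of all names did and 2.37% were called higher, and 10 had an unadjusted p under 0.05 in that direction. In the shRNA comparison 0 fell under that scaling and 17 had an unadjusted p under 0.05, while 0.125% of all names were called lower and 0.219% higher. DESeq2 called 4 members lower with MC-LR, where 3.01% of all names were called lower and 2.39% higher. It called 0 with the Hsp90aa1 shRNA, where 11 members had an unadjusted p under 0.05 and 0.724% of all names were called lower and 0.219% higher. It gave no adjusted p for 9 and 17 members. The share of all names with an unadjusted p under 0.05 was not computed under either scaling. The unadjusted counts of members therefore cannot be set against the adjusted shares over all names. Under TMM scaling 6 members had a log2 fold change above 0 with MC-LR and 2 with the Hsp90aa1 shRNA, so the direction of single names below is that of levels per library total.

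The edge carried nearly all of the signal. It held 96.4% and 94.8% of the members' RPM in the MC-LR libraries and 96.7% and 96.5% in control. It held 99.3% and 97.8% with the Hsp90aa1 shRNA and 98.0% and 99.2% with the NC shRNA. The middle start, 39842999, was the most abundant in each library. It summed to 227 and 171 RPM with MC-LR, against 1191 and 1201 RPM in control, 6.01-fold lower by means. The first start, 39842998, was at 63.3 and 58.8 RPM with MC-LR against 256 and 251 RPM in control, 4.15-fold lower, and the third, 39843000, was at 10.6 and 8.69 RPM with MC-LR against 68.4 and 54.4 RPM in control, 6.37-fold lower. No start had overlapping groups. In the other table the middle start was at 118 and 41.8 RPM with the Hsp90aa1 shRNA, against 769 and 1079 RPM with the NC shRNA, 11.6-fold lower. The first start was 11.5-fold lower and the third 13.8-fold lower with the Hsp90aa1 shRNA.

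The share of the members' RPM at the middle start was 72.7% and 68.0% with MC-LR, against 76.1% and 77.0% in control. Both MC-LR libraries lay below both control libraries, by 6.14 percentage points on average. The same share was 76.9% and 76.8% with the Hsp90aa1 shRNA, against 75.7% and 76.8% with the NC shRNA, a difference of 0.591 percentage points. The order of the 3 starts was the same in these groups, the middle first and the third lowest.

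The 5′ ends were fixed and the 3′ ends were spread, so the fragments at 1 start formed a ladder of lengths. At the middle start 17 lengths were listed in the shRNA table, each length of 17 to 33 nt being 1 name. In the NC shRNA libraries this ladder had high points at 21 nt with 101 and 204 RPM and at 30 nt with 112 and 93.9 RPM, and a low stretch near 25 nt with 16.4 and 17.9 RPM between them. The longest name, of 33 nt, was above the 32-nt name as well, at 65.8 and 33.9 RPM. In the Hsp90aa1 shRNA libraries the 21-nt name was at 43.0 and 7.02 RPM, the 30-nt name at 4.79 and 5.63 RPM and the 25-nt name at 1.35 and 0.554 RPM. In control libraries the ladder was highest at 29 and 30 nt. The 29-nt name was at 27.1 and 19.4 RPM with MC-LR against 197 and 236 RPM in control. The names of 18 to 21 nt at this start were listed in the shRNA table and not in the MC-LR table. The rule by which names were listed is not given in the sources used here, so no level of theirs is known for MC-LR or control sperm.

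**Figure D2:**
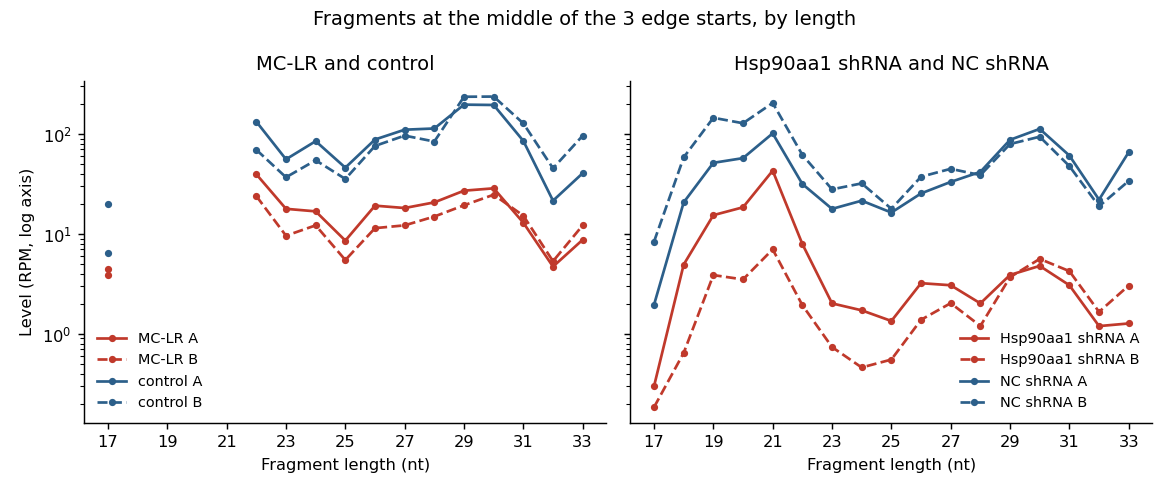
Level (RPM, log axis) of each name at the middle edge start by fragment length (nt), one line for each library. MC-LR lines lie below control lines and Hsp90aa1 shRNA lines below NC shRNA lines at each listed length; the NC shRNA libraries reach 101 and 204 RPM at 21 nt and 112 and 93.9 RPM at 30 nt.

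In the NC shRNA group the high points were shared by the first and the middle start as end positions. Summed over starts, 3′ ends at 39843019 came to 53.4 and 9.42 RPM with the Hsp90aa1 shRNA, against 128 and 253 RPM with the NC shRNA. Those at 39843028 came to 5.84 and 7.11 RPM with the Hsp90aa1 shRNA, against 149 and 124 RPM with the NC shRNA. By means the first of these ends was 6.07-fold lower and the second 21.1-fold lower. Without Hsp90aa1 shRNA library A these folds were 20.3 and 19.2, and without library B 3.57 and 23.4, so the contrast between the ends rested on library A. In the MC-LR table the ends at 39843027 and 39843028 led, with 33.0 and 24.7 RPM at 39843027 with MC-LR against 248 and 296 RPM in control, and 36.2 and 31.4 RPM at 39843028 with MC-LR against 240 and 301 RPM in control. The end at 39843020 was a lower high point there, at 49.3 and 30.8 RPM with MC-LR against 165 and 89.1 RPM in control. No name ending at 39843019 was listed in that table, so whether its short high point lies at another base is not known. Of the listed end positions, 39843020 was the highest in MC-LR library A, while 39843028 led in MC-LR library B.

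**Figure D3:**
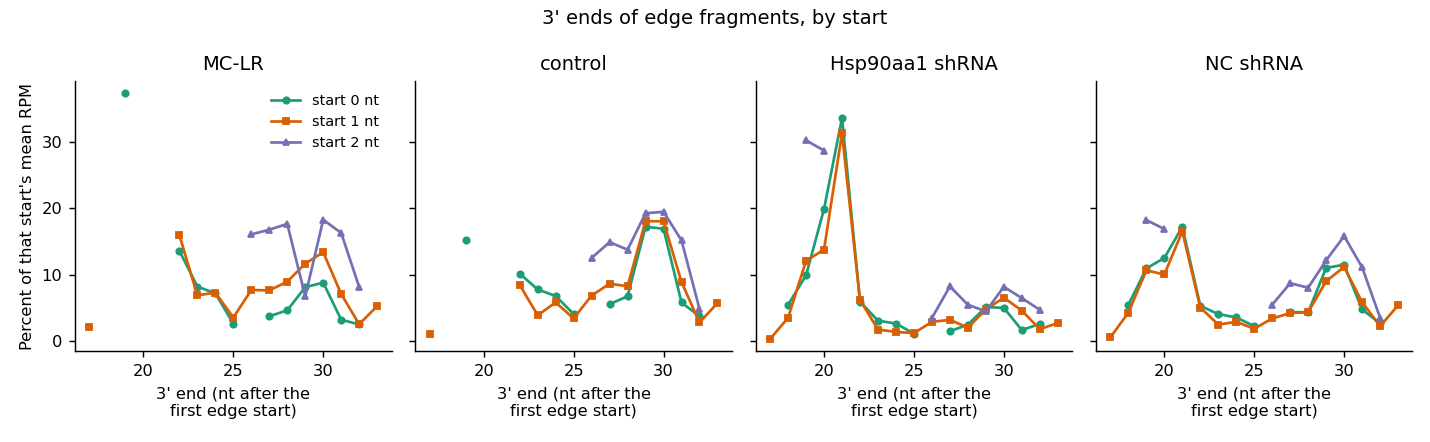
Position of the 3′ end (nt after the first edge start) of edge fragments, as the percent of each start's mean RPM in each group; colours and symbols give the start, 0, 1 or 2 nt after the first. High points at 21 and at 29 to 30 nt fall on the same end positions for the first and the middle start in the NC shRNA libraries, and end positions with no listed name leave gaps.

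At the edge, long fragments were lower by a larger factor than short ones with MC-LR, and in the shRNA comparison this depended on 1 library. Long means 26 to 33 nt and short 17 to 25 nt, a cut placed in the low stretch after the lengths were seen. Short edge names were 10 in the MC-LR table and 19 in the shRNA table, so the short folds cover unlike sets. Long edge fragments summed to 169 and 144 RPM with MC-LR, against 1041 and 1220 RPM in control, 7.23-fold lower by means. Short ones summed to 132 and 94.3 RPM with MC-LR, against 474 and 286 RPM in control, 3.36-fold lower. When 1 library was left out the MC-LR folds were 6.65 to 7.84 for long and 2.53 to 4.19 for short fragments. Long edge fragments were at 27.8 and 27.9 RPM with the Hsp90aa1 shRNA, against 576 and 508 RPM with the NC shRNA, 19.5-fold lower. Short ones were at 124 and 25.4 RPM with the Hsp90aa1 shRNA, against 420 and 886 RPM with the NC shRNA, 8.73-fold lower. Without Hsp90aa1 shRNA library A the order was turned round, at 19.4-fold for long and 25.7-fold for short fragments, and without library B the short fold was 5.26. Without NC shRNA library B it was 5.61. The 2 Hsp90aa1 shRNA libraries thus had nearly the same level of long fragments and stood far apart in short ones. Over the edge names in both tables, the shRNA comparison gave 19.5-fold for long and 13.5-fold for short fragments with all its libraries.

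The log2 ratio of long to short RPM at the edge was 0.35 and 0.61 with MC-LR, against 1.13 and 2.09 in control. The groups did not overlap and the difference of means was −1.13, between −1.61 and −0.65 when 1 library was left out. The same log2 ratio was −2.16 and 0.14 with the Hsp90aa1 shRNA, against 0.46 and −0.80 with the NC shRNA. Here the groups overlapped and the difference of −0.84 did not hold, lying between −1.99 and 0.31 when 1 library was left out. It was −0.31 over the names in both tables. The RPM-weighted mean length of members differed in the same direction. It was 26.2 and 26.7 nt with MC-LR against 27.1 and 28.4 nt in control, and 22.3 and 25.7 nt with the Hsp90aa1 shRNA against 26.2 and 23.9 nt with the NC shRNA. The second pair of groups overlapped.

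Libraries also differed in fragment length as a whole, and the downstream part of the same repeat copy was used to set the edge against this. The downstream part held 4042 names with their first locus there in the MC-LR table and 4828 in the shRNA table. Its log2 ratio of long to short was 0.29 and 0.32 with MC-LR, against −0.17 and 0.86 in control. It was −0.05 and 1.45 with the Hsp90aa1 shRNA, against 0.59 and −0.44 with the NC shRNA. The downstream groups overlapped in both comparisons. Taken as the edge minus the downstream part within each library, the log2 ratio was 0.06 and 0.29 with MC-LR against 1.30 and 1.23 in control, and −2.11 and −1.31 with the Hsp90aa1 shRNA against −0.14 and −0.36 with the NC shRNA. Neither pair of groups overlapped, with differences of means of −1.09 and −1.46 and an exact permutation p of 0.333 each, the smallest these designs allow. The differences lay between −1.20 and −0.97 and between −1.86 and −1.06 when 1 library was left out. Set against the downstream part of its own library, the edge was thus poorer in long fragments with MC-LR and with the Hsp90aa1 shRNA, relative to control and the NC shRNA.

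**Figure D4:**
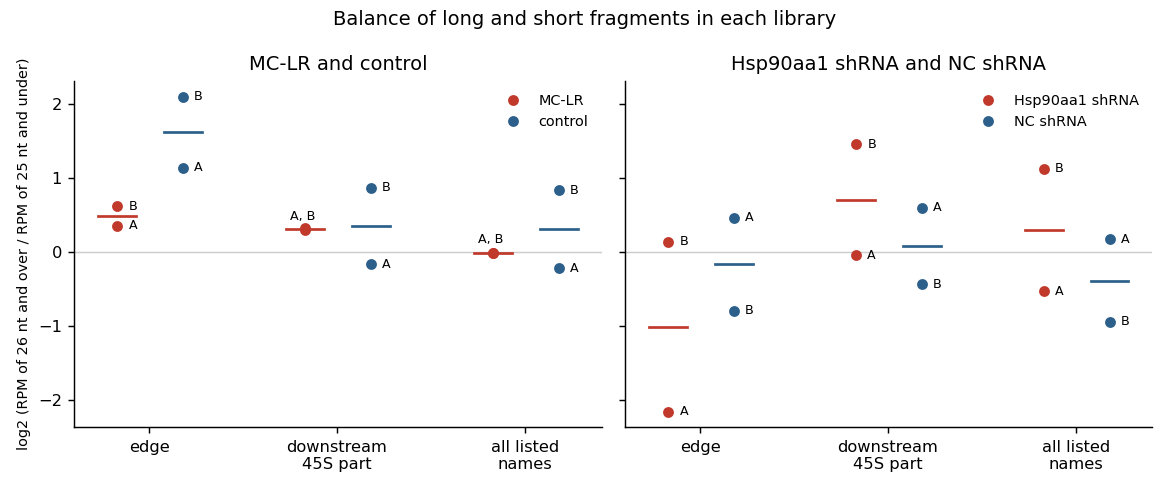
log2 ratio of the RPM in fragments of 26 nt and over to that in fragments of 25 nt and under, for each library (points, lettered) and group mean (bars), at the edge, in the downstream part of the 45S copy and over all listed names. At the edge the MC-LR libraries (0.35 and 0.61) lie below the control libraries (1.13 and 2.09), while downstream the groups overlap in both comparisons.

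Name by name, the median edge name of 26 nt or more was 6.53-fold lower with MC-LR and the median shorter edge name 3.65-fold lower. In the downstream part these medians were 3.11 and 2.92. In the shRNA comparison the median long edge name was 21.99-fold lower with the Hsp90aa1 shRNA and the median short one 11.4-fold lower, against 7.02 and 10.01 in the downstream part. Without Hsp90aa1 shRNA library A the median was 22.4 for long and 30.9 for short edge names, again with the order turned round, and the short median was 6.94 without library B. It was 7.41 without NC shRNA library B and 17.2 without NC shRNA library A. Over all names of the tables the medians were 3.30 for long and 2.96 for short with MC-LR, and 6.32 for long and 8.55 for short with the Hsp90aa1 shRNA. Of the edge names, 2 of 31 in the MC-LR table and 15 of 40 in the shRNA table had 3 reads or fewer in at least 1 library. The median member had 5 reads in Hsp90aa1 shRNA library B. Neighbouring names cover the same bases, so these medians are descriptions and the names are no replicates. Whether 1 read can count under several names was not tested.

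**Figure D5:**
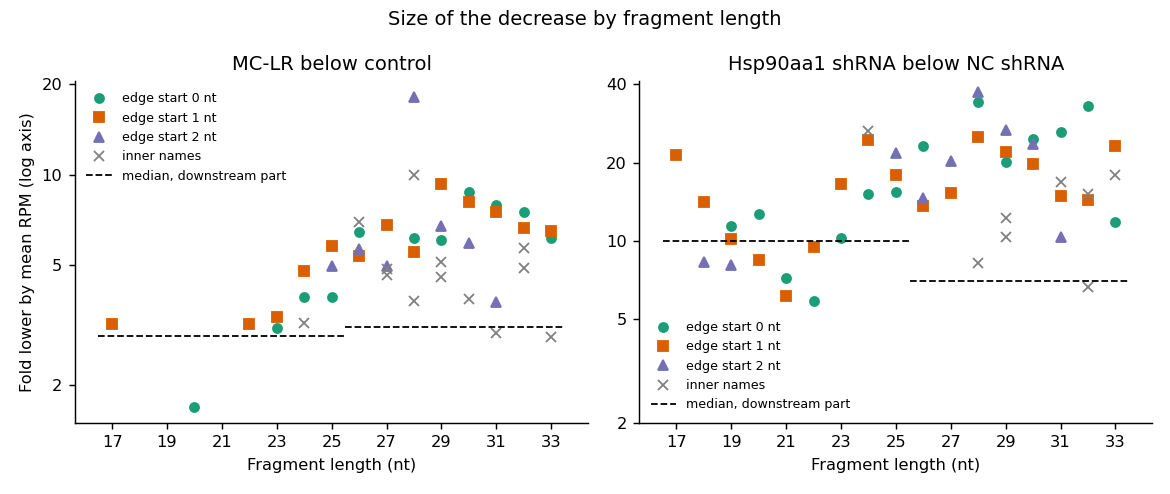
Fold by which the mean RPM of each member was lower with MC-LR than in control (left) and with the Hsp90aa1 shRNA than with the NC shRNA (right), on a log axis, by fragment length (nt); colours give the edge start, crosses the inner names and dashed lines the median of short and of long downstream names. Long edge names have a median of 6.53 and 21.99, above the downstream medians of 3.11 and 7.02. Levels are per library total; scaled to the listed names 6 and 2 members lay above 0.

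Among the long edge names, piR-mmu-55536630, 29 nt at chr17:39842999-39843027, had the largest log2 fold change of members in both tables. It was at 27.1 and 19.4 RPM with MC-LR, against 197 and 236 RPM in control, a log2 fold change of −3.18 ± 0.35 (SE; limma adjusted p = 2.43e-04). It also passed under TMM scaling in that comparison, at −1.52 (edgeR adjusted p = 0.0406, the highest of its alternatives). With the Hsp90aa1 shRNA it was at 3.89 and 3.69 RPM, against 87.4 and 79.4 RPM with the NC shRNA, a log2 fold change of −4.14 ± 0.52 (SE; limma adjusted p = 5.82e-04). Under TMM scaling it did not pass there, at −1.59 (edgeR adjusted p = 0.386). In RPM, the levels within each group were close and the groups lay far apart.

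piR-mmu-4765370, 1 base longer at the same start, was at 28.6 and 24.7 RPM with MC-LR against 195 and 237 RPM in control, a log2 fold change of −2.97. Its level was 4.79 and 5.63 RPM with the Hsp90aa1 shRNA against 112 and 93.9 RPM with the NC shRNA, a log2 fold change of −4.07. piR-mmu-32178986, the 28-nt name of this start, was at 2.02 and 1.20 RPM with the Hsp90aa1 shRNA against 41.8 and 38.8 RPM with the NC shRNA, a log2 fold change of −4.00. piR-mmu-3525536 and piR-mmu-20282853, of 31 and 27 nt, changed by −2.81 and −2.71 with MC-LR. The longest edge name of this start, piR-mmu-52815038 of 33 nt, was at 8.75 and 12.2 RPM with MC-LR against 40.5 and 96.2 RPM in control, so the control libraries stood far apart. It was at 1.27 and 3.05 RPM with the Hsp90aa1 shRNA against 65.8 and 33.9 RPM with the NC shRNA. Each of these fell in the comparison named. Under TMM scaling none of these calls held, with edgeR adjusted p from 0.0624 to 0.417.

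At the first start the leading long name was piR-mmu-9256083 of 30 nt, which shares its 3′ end with piR-mmu-55536630. It was at 5.05 and 4.88 RPM with MC-LR against 37.9 and 49.4 RPM in control, a log2 fold change of −2.89. At the third start piR-mmu-4773141 of 29 nt was at 1.85 and 1.68 RPM with MC-LR against 12.8 and 11.1 RPM in control, a log2 fold change of −2.23. The 1 RPM added before taking logs understates the fall of names as low as piR-mmu-67674 of 31 nt, at the same start. Of the members tested in the shRNA table, this name was among those with the smallest log2 fold changes. It was at 0.0748 and 0.277 RPM with the Hsp90aa1 shRNA, from 1 and 3 reads, against 2.06 and 1.57 RPM with the NC shRNA, and fell by 1.26 on the log2 scale (limma adjusted p = 0.00101; 7.75e-12 to 0.779 over its alternatives). The 28-nt name of that start, piR-mmu-9265880, was chosen after its values were seen, because it was the only other member to pass under TMM scaling with MC-LR. It was at 0.842 and 0.457 RPM with MC-LR, from 5 and 3 reads, against 13.0 and 10.7 RPM in control, 18.2-fold lower by means. With the Hsp90aa1 shRNA it was at 0.150 and 0.185 RPM, from 2 reads in each library, against 6.80 and 5.75 RPM with the NC shRNA, 37.5-fold lower by means, so few reads stand behind either fold. These were the highest folds of the members in each comparison.

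The short edge names had a wider spread between the Hsp90aa1 shRNA libraries than the long ones. The most abundant member with the NC shRNA was piR-mmu-48993532, 21 nt at chr17:39842999-39843019. It was at 43.0 and 7.02 RPM with the Hsp90aa1 shRNA, against 101 and 204 RPM with the NC shRNA, a log2 fold change of −2.95 ± 0.83 (SE; limma adjusted p = 0.00662). The 2 libraries of each group stood far apart, and under TMM scaling the log2 fold change was 0.07. Its neighbours piR-mmu-49093985 of 20 nt and piR-mmu-48797774 of 19 nt were at 18.5 and 3.51 RPM and at 15.4 and 3.88 RPM with the Hsp90aa1 shRNA, against 57.4 and 128 RPM and 51.5 and 145 RPM with the NC shRNA. Their log2 fold changes were −3.21 and −3.29, and both fell. piR-mmu-49150096, the 22-nt name of the first start with the same 3′ end as piR-mmu-48993532, was at 10.5 and 2.40 RPM with the Hsp90aa1 shRNA against 26.6 and 49.0 RPM with the NC shRNA. It had the lowest fold of all members there, 5.86, and a log2 fold change of −2.57, which was 0.17 under TMM scaling. piR-mmu-48734400, 18 nt at the third start, was at 2.17 and 0.0923 RPM with the Hsp90aa1 shRNA against 4.84 and 14.0 RPM with the NC shRNA.

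In the MC-LR table the leading short name was piR-mmu-49565606 of 22 nt at the middle start. It was at 39.6 and 23.9 RPM with MC-LR, against 133 and 69.5 RPM in control, a log2 fold change of −1.61 ± 0.42 (SE; limma adjusted p = 0.00775). It was the most abundant member in MC-LR library A. Its call was lost without MC-LR library B (adjusted p = 0.0763; 5.52e-08 to 0.988 over its alternatives), and its log2 fold change was 0.05 under TMM scaling. The only member tested that did not pass was piR-mmu-49291103, 20 nt at the first start, with 24.7 and 20.9 RPM with MC-LR against 50.2 and 26.8 RPM in control, a log2 fold change of −0.67 (limma adjusted p = 0.120). Without control library B it passed at −1.11 (adjusted p = 0.00362, the lowest of its alternatives, the highest being 0.543), and under TMM scaling it was 0.96. The same name was at 3.14 and 0.646 RPM with the Hsp90aa1 shRNA against 14.3 and 33.7 RPM with the NC shRNA, and fell by 3.14 on the log2 scale.

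The shortest member, piR-mmu-8101597 of 17 nt at the middle start, was at 3.87 and 4.42 RPM with MC-LR against 20.1 and 6.45 RPM in control, a log2 fold change of −1.29 (limma adjusted p = 0.0314). The call was lost without MC-LR library A, without MC-LR library B, without control library A, where the log2 fold change was −0.54, and at a pseudocount of 5 RPM (adjusted p = 0.0606; 2.39e-07 to 0.997 over its alternatives). Under TMM scaling the value was 0.02. With the Hsp90aa1 shRNA it was at 0.299 and 0.185 RPM against 1.96 and 8.37 RPM with the NC shRNA and fell (limma adjusted p = 0.0026). NC shRNA library B was the higher of its group, as it was at each length of 18 to 22 nt at this start.

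The inner fragments were rare. They summed to 11.1 and 13.0 RPM with MC-LR, against 51.0 and 54.2 RPM in control, 4.37-fold lower by means. They summed to 1.12 and 1.20 RPM with the Hsp90aa1 shRNA, against 20.5 and 11.6 RPM with the NC shRNA, 13.8-fold lower. The groups did not overlap in either comparison. In the MC-LR table, 12 of the 13 inner names were tested and these fell, and in the shRNA table, 6 of the 8. The other 1 and 2 names were below a mean of 1 RPM in both groups. Counts were low, with 3 reads or fewer in at least 1 library for 7 of the 13 and all 8 of the 8.

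Inner fragments were longer than edge fragments on average, with an RPM-weighted mean length of 28.7 and 29.0 nt with MC-LR against 28.5 and 29.5 nt in control. Their mean length did not separate the groups. Of the 14 different inner names, 9 began with T in the reference sequence, 4 with G, 1 with A and 0 with C, where 23.9% of the bases read in the window are T. Base 10 was A in 2 of them. Their GC content was 55.6% to 71.9%, with a median of 63.2%, against 67.5% over the window. Overlapping inner names were each counted, among them the 5 printed above. Edge fragments begin before the annotated transcript whose sequence was read. Their first bases were not read, so these counts leave out the edge.

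The 5 overlapping names printed above were the main inner cluster. They were the only names in their 100-nt window and summed to 6.56 and 5.64 RPM with MC-LR, against 26.5 and 20.8 RPM in control, 3.87-fold lower by means. Their sum was 0.898 and 0.739 RPM with the Hsp90aa1 shRNA, against 16.5 and 8.97 RPM with the NC shRNA, 15.5-fold lower. Their 3′ ends were alike, 4 ending at 39843480 and 1 a base later, while their 5′ ends were at 5 positions, the opposite of the edge. The shortest of them, piR-mmu-64425089 of 24 nt, had the highest control mean of the 5, at 3.03 and 2.13 RPM with MC-LR against 11.4 and 5.24 RPM in control. In control library B piR-mmu-67688460 was slightly above it, at 5.44 RPM. piR-mmu-67688460 of 32 nt was at 0.0748 and 0.185 RPM with the Hsp90aa1 shRNA, from 1 and 2 reads, against 3.19 and 0.747 RPM with the NC shRNA.

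The inner name piR-mmu-67956595, which begins with A, was at 1.18 and 4.12 RPM with MC-LR against 11.7 and 15.5 RPM in control, and fell by 2.12 on the log2 scale. It was at 0.0748 and 0.185 RPM with the Hsp90aa1 shRNA against 1.75 and 1.42 RPM with the NC shRNA, and fell by 1.19. Farther along began piR-mmu-9794999 of 26 nt, at 39844364, and piR-mmu-4640254 of 28 nt, at 39844486. They were at 0.168 and 0.152 RPM and at 0.337 and 0.305 RPM with MC-LR, against 1.02 and 1.21 RPM and 1.02 and 1.41 RPM in control. The log2 fold changes were −0.87 and −0.74, with 1 and 2 reads in each MC-LR library, and both calls were lost without either MC-LR library. The call of piR-mmu-4640254 was also lost with a replicate block on the library letters (limma adjusted p = 0.0550; 0.00102 to 0.976 over its alternatives).

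Within the repeat copy as a whole, the spacer fragments were a minor part of the RPM of the names kept there. Names were kept at their first locus, so a downstream name also listed at an earlier locus is left out of the totals here. Each member was listed at 1 locus. Members made up 1.04% and 0.940% of the RPM of names kept on the copy with MC-LR, against 1.84% and 2.02% in control. They made up 1.99% and 1.04% with the Hsp90aa1 shRNA, against 2.02% and 2.68% with the NC shRNA. Neither pair of groups overlapped (exact permutation p = 0.333 each), though Hsp90aa1 shRNA library A lay close to NC shRNA library A. With 1 name per start the difference between the shRNA groups changed sign. The downstream part summed to 28055 ± 2203 RPM with MC-LR and 79561 ± 5344 RPM in control (SD, n = 2 each), 2.84-fold lower. It summed to 6371 ± 1656 RPM with the Hsp90aa1 shRNA and 50140 ± 1297 RPM with the NC shRNA (SD, n = 2 each), 7.87-fold lower. With all libraries, the upstream folds of 5.55 with MC-LR and 11.7 with the Hsp90aa1 shRNA were both larger than the downstream folds. Without Hsp90aa1 shRNA library B the upstream fold was 7.91. This value cannot be set against the downstream 7.87, which includes library B. The downstream sum in Hsp90aa1 shRNA library A was 7542 RPM, above its group mean, so leaving out library B lowers the downstream fold as well.

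Over the 38 names in both tables the sum was 5.56-fold lower with MC-LR than in control and 17.5-fold lower with the Hsp90aa1 shRNA than with the NC shRNA. The tables were scaled apart and the difference between these folds was not tested. Of these names 31 lay at the edge and 7 were inner. The 10 names only in the shRNA table were 9 edge names of 18 to 22 nt and 1 inner name, and the 6 only in the MC-LR table were inner.

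Library totals recovered from the deposited values were 5941139 and 6560723 reads with MC-LR, 14634370 and 4960467 in control, 13360928 and 10832261 with the Hsp90aa1 shRNA and 9710383 and 13380630 with the NC shRNA. Members held 590 to 22916 reads in a library. A count of 3 reads was 0.205 to 0.605 RPM, which covers counting error only. The listed names made up 12.5% and 11.7% of the totals with MC-LR against 38.1% and 35.2% in control, and 4.88% and 3.16% with the Hsp90aa1 shRNA against 27.7% and 32.3% with the NC shRNA. Of 3 germ-cell microRNA genes (Mir34b, Mir34c and Mir449a), 0 had a listed name in the MC-LR table and 3 in the shRNA table, at 634 and 163 RPM with the Hsp90aa1 shRNA against 1327 and 2641 RPM with the NC shRNA. Of 6 epithelial microRNA genes, 6 had listed names in both tables, at 2427 and 2513 RPM with MC-LR against 6464 and 4760 RPM in control, and 402 and 111 RPM with the Hsp90aa1 shRNA against 2618 and 3841 RPM with the NC shRNA. Leukocyte genes had 2 of 3 listed in the MC-LR table, at 8.08 and 12.3 RPM with MC-LR against 20.8 and 18.9 RPM in control, and 1 of 3 in the shRNA table, at 33.0 and 13.3 RPM with the Hsp90aa1 shRNA against 102 and 204 RPM with the NC shRNA. Erythroid genes had 1 of 2 listed in the MC-LR table, at 0.505 and 1.07 RPM with MC-LR against 1.91 and 3.02 RPM in control, and 2 of 2 in the shRNA table, at 43.7 and 56.2 RPM with the Hsp90aa1 shRNA against 272 and 405 RPM with the NC shRNA. Muscle and liver genes had none listed. The part of other cells in the spacer values was not tested.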

How the data were processed

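Small RNA of 8 sperm libraries was read from 2 tables in which the authors deposited RPM values for piRNA names with a locus and strand. The genome build was mm10, per the submitters' processing notes, which name HTSeq 0.6.0, HISAT2 2.1.0 and Bowtie2 2.2.3. Neither trimming nor the listing rule is stated in the sources used here. The deposited RPM values were whole multiples of 1 read for 100% of values, within 0.01 of a read, which gave the reads back. Each name was used once, at its first locus by chromosome and start. Starts were read as 0-based: start + 1 met the start of a RefSeq mature microRNA for 133 and 343 names of the MC-LR and shRNA tables, against 16 and 58 otherwise. Reads that fit several repeat copies cannot be assigned to 1 copy.

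limma 3.58.1 (trend, robust; R 4.3.3) was fitted to log2(RPM + 1) over all names of a table whose group mean reached 1 RPM in a group, separately by table. The Benjamini-Hochberg threshold was 0.05. Fold changes on this scale understate those of low names. The quasi-likelihood test of edgeR 4.0.16 on the recovered reads called 42 and 46 members lower with library totals, and 10080 of 13271 and 16712 of 16857 names in all. DESeq2 1.42.0 was an alternative. Sums per library were compared by exact permutation. Fits were tested on simulated data. Python 3.11.15, pandas 2.3.3 and matplotlib 3.10.9 were used.

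Members named are, in each table, the 5 most abundant, the 3 largest falls and rises past the threshold at or above the median level, the leading name of the 3 leading starts, the shortest and longest, and the 3 smallest log2 fold changes. Members and lists were chosen with earlier results of these data known. The edge, the overlapping cluster and the length cut were set after the positions were seen.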

Additional observations from a re-analysis of the deposited data

How the results depend on the processing

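Counts of members called lower depended on the scaling. In the MC-LR comparison 2 were called with TMM factors and 4 with DESeq2 size factors; in the shRNA comparison 0 were called with either. Leaving out 1 library gave 31 to 43 called with MC-LR, where 39.8% to 82.2% of all names were called lower, and 45 to 48 with the Hsp90aa1 shRNA, all members tested in each fit, where 85.1% to 96.6% were. A replicate block on the letters gave 41 and 46, where 71.9% and 96.4% of all names were called lower. The letters were not taken to pair libraries, since same-lettered deviations correlated at 0.06 and −0.60 over all names and at 0.33 and −0.76 over members; a crossed pairing, chosen after seeing the data, called 46 with the Hsp90aa1 shRNA. The sum of members, as a ratio, was 0.161 to 0.200 with MC-LR and 0.0450 to 0.126 with the Hsp90aa1 shRNA when 1 library was left out. The difference in mean length was −1.92 to −0.66 nt and −2.75 to 0.67 nt, in the share of the repeat copy −1.03 to −0.85 and −1.31 to −0.36 percentage points, in the share at the middle start −8.51 to −3.76 and 0.06 to 1.13 percentage points, and in the long-to-short log2 ratio −1.61 to −0.65 and −1.99 to 0.31. With 1 name per start, the difference with MC-LR was −2.42 nt in mean length and −0.57 percentage points of the repeat copy. At the middle start it was −25.5 percentage points. With the Hsp90aa1 shRNA the difference in the share of the repeat copy was then 0.0477 percentage points. Its sign had turned from the −0.84 over all members. Over names in both tables the difference at the middle start was 1.36 with the Hsp90aa1 shRNA. With TMM factors and with DESeq2 the sign turned, to 0.96 and 0.94 for piR-mmu-49291103, 0.0466 and 0.0270 for piR-mmu-49565606 and 0.0185 and 0.00608 for piR-mmu-8101597 with MC-LR, and to 0.0727 and 0.103 for piR-mmu-48993532 and 0.17 and 0.21 for piR-mmu-49150096 with the Hsp90aa1 shRNA; the cause was not tested. Few reads limit the inner names and also edge names, mainly in the shRNA table (15 of 40 with 3 reads or fewer in a library). The names listed limit each sum and length profile.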
